A study of Mus musculus with 15 samples.

Results

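A set of 10 epithelial genes was followed by symbol through bulk mRNA profiles of MC38 tumours: the gland-type keratins Krt8, Krt18 and Krt19 with the epithelial surface genes Epcam, Cldn4 and Cldn7, and the skin-type keratins Krt5, Krt14, Krt10 and Krt1. All 10 were found among the 21851 genes of the deposited table. MC38 is a mouse colon adenocarcinoma line grown in mice of its own strain, and the labels give the animals as wild type. Tumour blocks came from 3 groups of 5, all injected intravenously: mice given vehicle, mice given anti-PD-1 (an antibody against an inhibitory receptor of T cells), and mice given BG136, a soluble polysaccharide of the β-glucan class, together with anti-PD-1 (the combination). No untreated or normal epithelial sample was analysed here, and BG136 alone was not a group. The labels do not state that each tumour came from a separate animal, so p-values measure the spread between tumours. Each value is in FPKM (fragments counted per kilobase of a transcript's length and scaled to each library's size), a scale on which genes of different length can be compared. FPKM summed to between 377509 and 424899 per library. Read totals are not in the table, but depth relative to vehicle replicate 1 could be read from the spacing of low values and lay between 0.830 and 1.07.

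Keratins are the intermediate filament proteins of epithelial cells, and a filament needs a type II keratin paired with a type I keratin. Krt8 (type II) with Krt18 or Krt19 (type I) forms the filaments of simple and glandular epithelia such as colon, Krt5 with Krt14 those of basal cells in skin and in the basal layer of glands, and Krt1 with Krt10 those of the differentiating layers of epidermis. Epcam encodes an adhesion molecule of simple epithelia, and Cldn4 and Cldn7 encode claudins, the sealing proteins of tight junctions. Tumour cells that lose epithelial traits make little of these proteins.

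Promoter sequence is shown for Krt18, Epcam and Cldn4, which rose and fell together across tumours, and for Krt14, which did not follow them. RefSeq promoters of build GRCm38.p6 were matched by symbol for 8 of the 10 genes. The windows cover 250 bases and end at the base before the annotated start, except that of Krt18, which covers 200 bases and ends 50 bases earlier. Krt18 is at chr15:102027966-102028165 (+), Epcam at chr17:87635729-87635978 (+), Cldn4 at chr5:134946935-134947184 (-) and Krt14 at chr11:100206031-100206280 (-). Each is written 5′ to 3′ on the strand of its gene, and capitals mark matches on either strand to the motifs named below.
Krt18: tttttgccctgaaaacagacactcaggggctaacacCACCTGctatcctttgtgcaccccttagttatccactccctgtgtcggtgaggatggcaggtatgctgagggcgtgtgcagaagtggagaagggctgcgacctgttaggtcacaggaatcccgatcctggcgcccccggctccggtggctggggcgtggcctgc
Epcam: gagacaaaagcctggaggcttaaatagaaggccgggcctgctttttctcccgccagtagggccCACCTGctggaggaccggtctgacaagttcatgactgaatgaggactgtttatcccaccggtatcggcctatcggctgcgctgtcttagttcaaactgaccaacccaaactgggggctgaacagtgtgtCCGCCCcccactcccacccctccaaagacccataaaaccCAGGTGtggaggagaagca
Cldn4: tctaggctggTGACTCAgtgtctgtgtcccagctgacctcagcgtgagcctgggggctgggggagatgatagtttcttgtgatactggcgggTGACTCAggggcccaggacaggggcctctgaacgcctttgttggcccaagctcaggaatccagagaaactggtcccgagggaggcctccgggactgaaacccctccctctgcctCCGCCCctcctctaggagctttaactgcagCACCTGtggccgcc
Krt14: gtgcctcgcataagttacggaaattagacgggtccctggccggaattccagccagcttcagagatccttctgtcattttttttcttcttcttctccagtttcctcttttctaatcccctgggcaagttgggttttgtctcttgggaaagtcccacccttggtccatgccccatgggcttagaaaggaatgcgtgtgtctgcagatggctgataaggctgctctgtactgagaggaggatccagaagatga
The motifs searched were the GC box GGGCGG, the TATA box TATAAA, the E-box CAGGTG that epithelial repressors of the SNAI and ZEB families can bind, the AP-1 site TGANTCA and the grainyhead site AACCGGTT. Among all 32851 mouse promoter windows of 250 bases in that table, 32.7% held the GC box, 12.4% the TATA box, 17.2% the E-box, 6.75% the AP-1 site and 0.116% the grainyhead site. Krt18 held 1 E-box, Epcam 2 E-boxes and 1 GC box, and Cldn4 1 E-box, 1 GC box and 2 AP-1 sites. None of the 5 motifs was in the Krt14 window. Krt5 and Krt8 held 1 E-box each, Krt10 1 E-box and 1 TATA box, and of the 2 annotated starts of Cldn7 the downstream one held 2 E-boxes and 1 GC box. These are letter matches only, and motifs outside the windows were not searched.

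Krt8 was low in most tumours and high in a few from both treated groups. Its level in vehicle replicates 1 to 5 was 0.0655, 0.0419, 0.694, 1.12 and 0 FPKM, in anti-PD-1 replicates 1 to 5 it was 5.51, 3.76, 0.0684, 0.462 and 0.216 FPKM, and in combination replicates 1 to 5 it was 0.312, 0.606, 3.94, 6.36 and 5.58 FPKM. Anti-PD-1 replicates 1 and 2 and combination replicates 3, 4 and 5 were thus the highest, and the 3 groups overlapped. One fragment is worth 0.0218 FPKM at the depth of vehicle replicate 1, and at each tumour's own relative depth the highest value stands for about 298 fragments and the median tumour for about 29.

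Krt18, the filament partner of Krt8, followed the same order. It was 0, 0, 0.758, 1.36 and 0 FPKM in the vehicle tumours, 3.75, 3.22, 0.0294, 0.540 and 0.416 FPKM with anti-PD-1, and 0.720, 0.913, 3.81, 7.29 and 6.13 FPKM with the combination. Every combination tumour lay above the 3 vehicle tumours at 0, while the lowest combination tumour lay below vehicle replicates 3 and 4. Krt19, the smallest keratin and a marker of ductal and glandular cells, was 0, 0, 1.46, 1.77 and 0 FPKM with vehicle, 6.57, 6.77, 0, 0.727 and 0.515 FPKM with anti-PD-1, and 0.554, 1.11, 5.46, 7.0 and 10.04 FPKM with the combination. It had the same tumours at the top as Krt8 and Krt18, and its groups overlapped too.

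Epcam had the lowest mean and the lowest maximum of the tested gland-type genes, though not the lowest vehicle median. Its values were 0.108, 0.0207, 0.622, 0.965 and 0.204 FPKM with vehicle, 2.46, 2.18, 0.0222, 0.246 and 0.189 FPKM with anti-PD-1, and 0.344, 0.588, 1.62, 3.82 and 3.51 FPKM with the combination. The claudins lay lower still: Cldn4 reached 0.533 FPKM with vehicle, 0.880 FPKM with anti-PD-1 and 1.90 FPKM with the combination, and Cldn7 reached 0.290, 0.685 and 1.10 FPKM in the same groups. At each tumour's own relative depth the highest values over all tumours stand for about 181 fragments of Epcam, 65 of Cldn4 and 28 of Cldn7, so values of Cldn7 in the low tumours rest on a few fragments. Summed over the 6 gland-type genes, the level ran from 0.0627 to 6.03 FPKM with vehicle (median 0.279), from 0.120 to 19.6 FPKM with anti-PD-1 (median 2.11) and from 2.22 to 27.8 FPKM with the combination (median 16.4). In a bulk sample fewer cells of a type and less RNA per cell cannot be told apart.

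**Figure D1:**
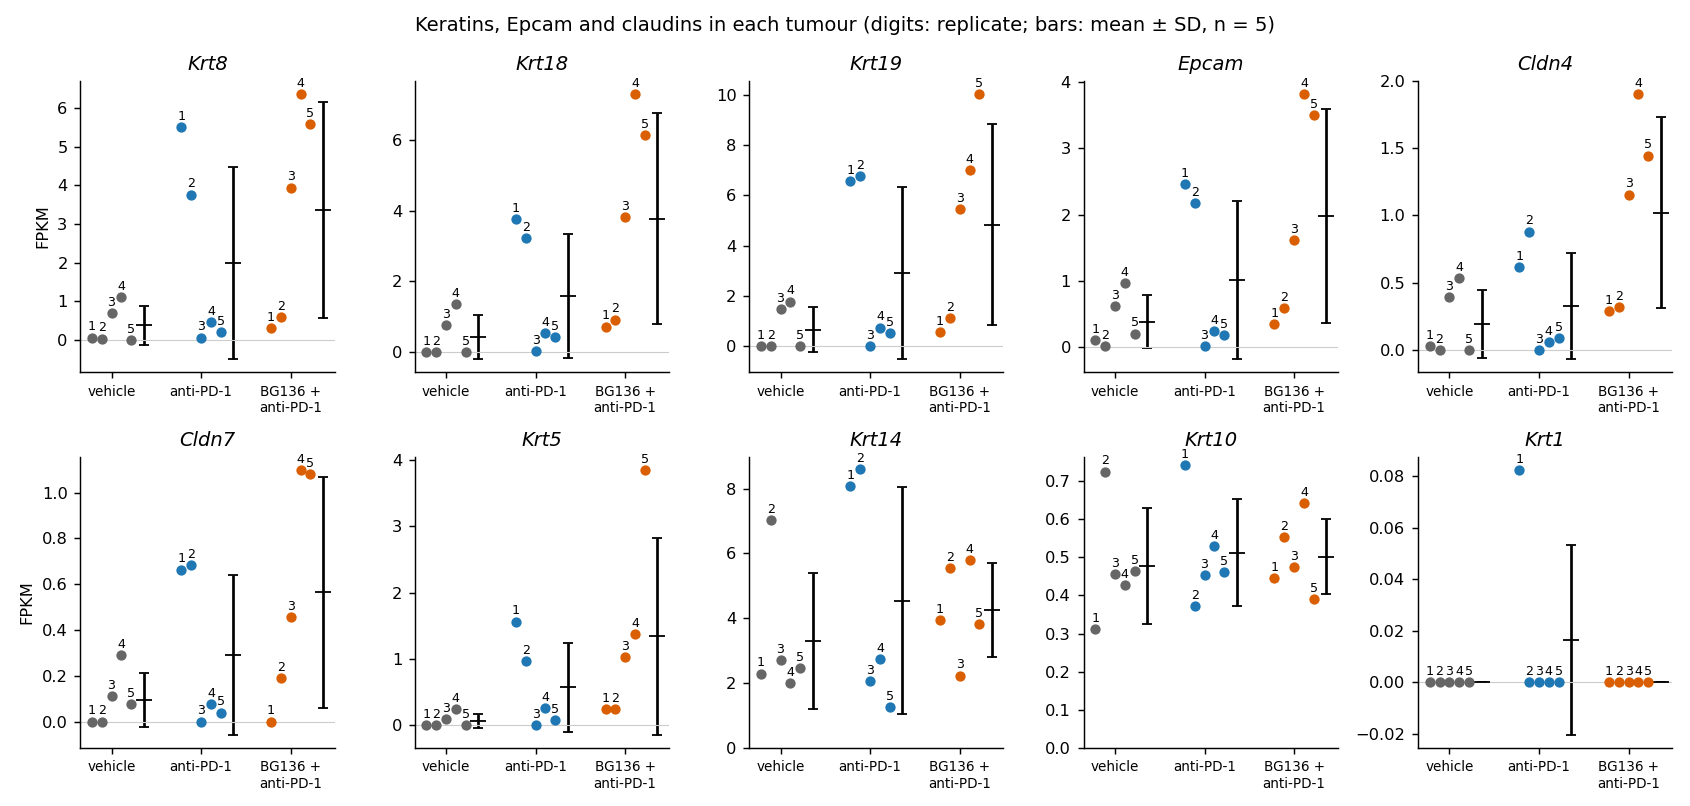
FPKM (y axis of each panel, linear, scaled per gene) of the 10 genes in the vehicle, anti-PD-1 and combination tumours; each point is 1 tumour with its replicate number, and the bar beside it is the group mean ± SD over 5 tumours. Anti-PD-1 replicates 1 and 2 and combination replicates 3, 4 and 5 stand highest for the gland-type genes and Krt5, whereas Krt14 and Krt10 have no such order and Krt1 is above 0 in 1 tumour.

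The skin-type keratins did not share 1 pattern. Krt5, the type II keratin of basal cells, was 0, 0, 0.0899, 0.242 and 0 FPKM in vehicle tumours, 1.56, 0.969, 0, 0.259 and 0.0761 FPKM with anti-PD-1, and 0.239, 0.240, 1.03, 1.38 and 3.85 FPKM with the combination. Its 5 highest tumours were the 5 highest of Krt8. Krt14, the type I partner of Krt5, was 2.29, 7.03, 2.71, 2.0 and 2.45 FPKM with vehicle, 8.09, 8.61, 2.05, 2.73 and 1.25 FPKM with anti-PD-1, and 3.94, 5.56, 2.23, 5.79 and 3.81 FPKM with the combination. Krt14 was present in every tumour, including the 3 vehicle tumours in which Krt5 was listed at 0, and its high tumours included vehicle replicate 2, the lowest of all 15 in summed gland-type level.

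Krt10, the type I keratin of differentiating epidermis, kept within a narrow range of 0.311 to 0.743 FPKM over all 15 tumours. Its partner Krt1 was listed at 0 in 14 tumours and at 0.0824 FPKM in anti-PD-1 replicate 1. The group means of Krt10 were 0.477 ± 0.152 FPKM with vehicle, 0.512 ± 0.141 FPKM with anti-PD-1 and 0.502 ± 0.0984 FPKM with the combination (SD, n = 5 each), and its groups overlapped fully.

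Ordered by group mean, Krt14 was the highest of the 10 genes with vehicle (3.29 ± 2.10 FPKM, SD, n = 5) and Krt19 came next at 0.645 ± 0.890 FPKM, a difference larger than either SD. With the combination Krt19 stood at 4.83 ± 4.01 FPKM, Krt14 at 4.26 ± 1.45, Krt18 at 3.77 ± 2.98, Krt8 at 3.36 ± 2.79, Epcam at 1.97 ± 1.62, Krt5 at 1.35 ± 1.49, Cldn4 at 1.02 ± 0.709 and Cldn7 at 0.565 ± 0.505 (SD, n = 5 each). Neighbours in that order differed by less than 1 SD. With anti-PD-1 the means were 4.54 ± 3.52 FPKM for Krt14, 2.92 ± 3.44 for Krt19, 2.0 ± 2.48 for Krt8, 1.59 ± 1.75 for Krt18, 1.02 ± 1.19 for Epcam and 0.574 ± 0.673 for Krt5, and here too neighbours lay within 1 SD of each other.

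The first comparison set both agents together against vehicle. Krt18 rose by 1.56 ± 0.51 (log2 change on the log2(FPKM + 1) scale ± SE, limma, adjusted p = 0.0255 over 11311 tested genes). For the other tested genes the combination lay above vehicle by 1.62 ± 0.66 for Krt19 (limma adjusted p = 0.0615), by 1.40 ± 0.58 for Krt8 (0.0646), by 0.96 ± 0.41 for Epcam (0.0760) and by 0.35 ± 0.39 for Krt14 (0.497), and none of these passed the threshold of 0.05. Thus 1 of the 5 tested genes passed upward and 0 downward, beside 16.6% of all tested genes called higher and 23.9% called lower, a share of members near the background. The median change of all tested genes was -0.05. Combination tumours above the vehicle maximum numbered 3 of 5 for Krt8, Krt18, Krt19 and Epcam. For 0 of the 10 members did the groups lie apart without overlap in either direction, beside 9.38% of tested genes that lay wholly higher. Here and in the comparisons below, that share covers only tested genes and only the upward direction. Only 5 of the 10 members are among the tested genes, so the 2 are not like for like.

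The Krt18 call rested on single tumours. It ended without vehicle replicate 1 (log2 change 1.46, limma adjusted p = 0.0561), vehicle replicate 2 (1.46, 0.0559), vehicle replicate 5 (1.46, 0.0574), combination replicate 3 (1.49, 0.0549), combination replicate 4 (1.29, 0.0632) or combination replicate 5 (1.35, 0.0625). Without combination replicate 1 or 2 it was 1.86 or 1.82, and 4 of the 5 tested genes then passed.

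The other 5 genes fell under the filter of at least 1 FPKM in at least 5 libraries. Krt8, Krt18 and Krt19 met it largely through the tumours where they are high, so the count above is not a count over all 10. Epcam, at most 0.965 FPKM with vehicle, met it only through treated tumours. For the genes under it an exact two-sided permutation test of 5 tumours against 5 was used, adjusted over the 17698 genes with any value; its smallest possible p is 0.00794. Krt5 was higher with the combination than with vehicle by 0.95 (exact p = 0.0238, adjusted 0.0851), Cldn4 by 0.71 (exact p = 0.0476, adjusted 0.133; limma adjusted p without the filter 0.0469), Cldn7 by 0.46 (exact p = 0.0952, adjusted 0.219) and Krt10 by 0.03 (exact p = 0.722, adjusted 0.878). By the exact test none passed after adjustment, where 18.3% of all 17698 genes did. By the same test Krt18 had an exact p of 0.0397 (adjusted 0.119), Krt19 0.0476 (adjusted 0.133), Krt8 0.0714 (adjusted 0.178), Epcam 0.0635 (adjusted 0.163) and Krt14 0.286 (adjusted 0.470).

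Anti-PD-1 alone against vehicle gave smaller differences, with none past the threshold. In log2(FPKM + 1), ± SE, anti-PD-1 lay above vehicle by 0.90 ± 0.66 for Krt19 (limma adjusted p = 0.442), 0.78 ± 0.58 for Krt8 (0.448), 0.69 ± 0.51 for Krt18 (0.451), 0.39 ± 0.41 for Epcam (0.618) and 0.23 ± 0.39 for Krt14 (0.772). This was 0 of 5 tested genes, beside 2.21% of all tested genes called higher and 3.34% lower. By the exact test 0 of the 17698 genes passed after adjustment, and 0 of the 10 members had groups without overlap, beside 7.09% of tested genes that lay wholly higher. The Krt14 difference changed sign without anti-PD-1 replicate 1 (-0.01) or 2 (-0.03). Among the genes under the filter the difference was 0.47 for Krt5 (exact p = 0.127), 0.21 for Cldn7 (exact p = 0.317), 0.13 for Cldn4 (exact p = 0.532) and 0.04 for Krt10 (exact p = 0.651). The sign of the Cldn4 difference turned without anti-PD-1 replicate 2 and that of Krt10 without vehicle replicate 1 or anti-PD-1 replicate 1.

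The comparison of the combination with anti-PD-1 is the one that adds BG136. The combination lay above anti-PD-1 by 0.88 ± 0.51 for Krt18 (limma adjusted p = 0.263), 0.72 ± 0.66 for Krt19 (0.464), 0.62 ± 0.58 for Krt8 (0.470), 0.57 ± 0.41 for Epcam (0.353) and 0.12 ± 0.39 for Krt14 (0.848), and none of the 5 passed. For Krt14 the group means in FPKM run the other way (4.26 with the combination, 4.54 with anti-PD-1), and the log2 difference turned negative without anti-PD-1 replicate 3 (-0.03) or 5 (-0.14). Over all tested genes 0 were called higher and 0.0619% lower, which is 7 genes, while 3187 had an unadjusted p under 0.05. Groups overlapped for all 10 members, beside 0.663% of tested genes that lay wholly higher. Of the genes under the filter Cldn4 differed by 0.58 (exact p = 0.103), Krt5 by 0.48 (exact p = 0.310), Cldn7 by 0.25 (exact p = 0.365) and Krt10 by -0.01 (exact p = 0.968). The 3 comparisons share groups, so the vehicle tumours enter both comparisons with vehicle and the anti-PD-1 tumours enter this one as the reference.

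Tumour by tumour, the gland-type genes moved together. The 5 tumours highest in Krt8, which were anti-PD-1 replicates 1 and 2 and combination replicates 3, 4 and 5, were also the 5 highest in Krt18, Krt19, Epcam, Cldn4, Cldn7 and Krt5. Of all 11311 tested genes, 222 (1.96%) had these same 5 tumours on top, and 4 of the members, Krt8 included, are among the 222. Cldn4, Cldn7 and Krt5 are not tested genes, so that share does not cover them. Krt14 shared 3 of these 5 tumours and Krt10 shared 2. Just inside and outside the top 5, the 5th and 6th highest tumours had 3.76 and 1.12 FPKM of Krt8, 5.46 and 1.77 FPKM of Krt19, 1.62 and 0.965 FPKM of Epcam, and 0.969 and 0.259 FPKM of Krt5. For Krt14 the same step was from 5.56 to 3.94 FPKM. Vehicle replicate 4 came next for each of the 6 gland-type genes, and vehicle replicates 1, 2 and 5 and anti-PD-1 replicate 3 were lowest in Krt8, Krt18 and Krt19.

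**Figure D2:**
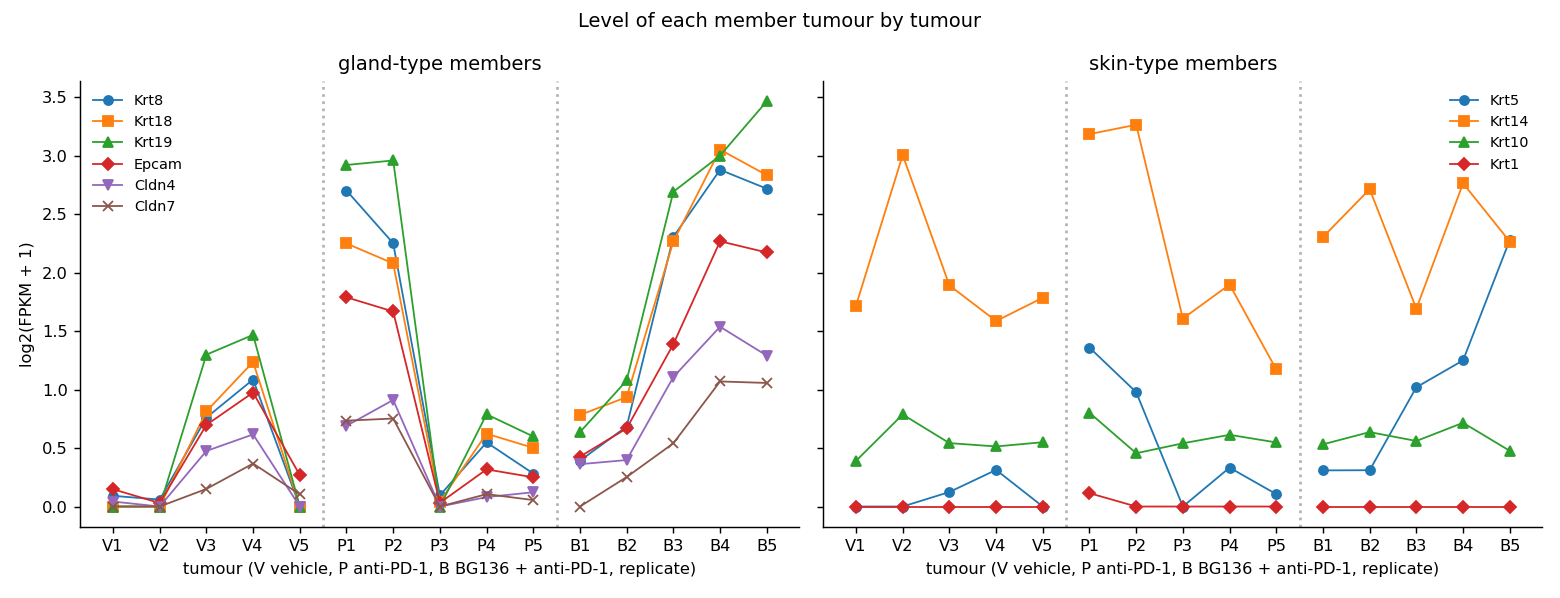
Level of each gene as log2(FPKM + 1) (y axis) in the 15 tumours (x axis; V vehicle, P anti-PD-1, B combination, with the replicate number), gland-type genes at left and skin-type at right; lines join the tumours of a group only to guide the eye. The 6 gland-type lines run in parallel with peaks at P1, P2 and B3 to B5, Krt5 follows them, and Krt14 is also high at V2.

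Over the 15 tumours Spearman's rho between pairs of the 6 gland-type genes ran from 0.906 to 0.986, with a median of 0.957 over 15 pairs. Krt5 ranked with them as well, at 0.888 to 0.945. Krt14 did so at 0.297 to 0.395 and Krt10 at -0.0179 to 0.119. All of these genes are read from the same 15 libraries and share their depth.

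**Figure D3:**
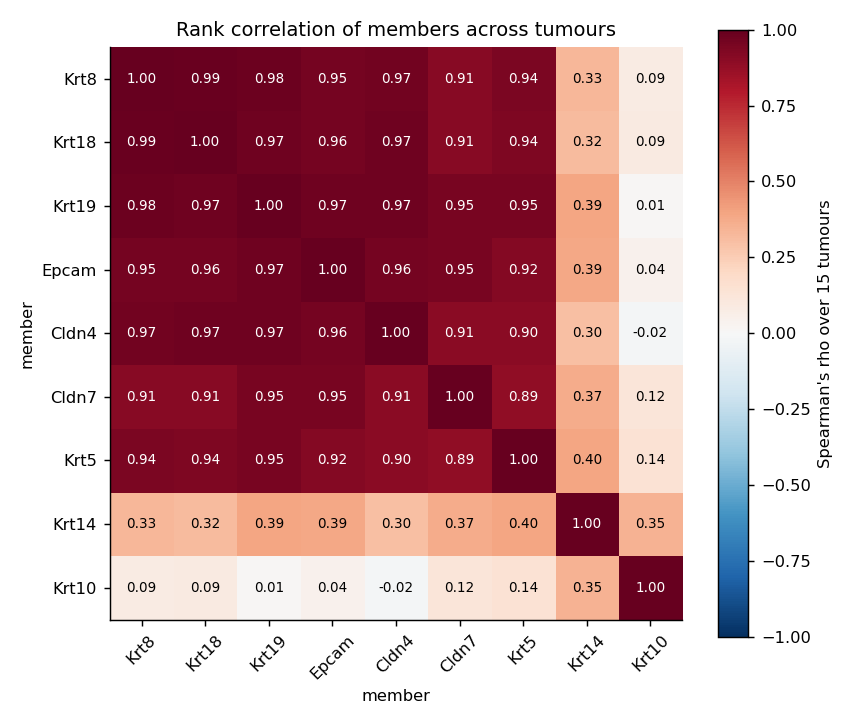
Spearman's rho between 9 of the genes over 15 tumours (colour and digits; both axes list the genes; Krt1, above 0 in 1 tumour, is left out). Gland-type genes and Krt5 form a block with rho of 0.888 or more, and Krt14 and Krt10 lie outside it.

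For 11 pairs chosen by filament partnership, membrane role or class, Pearson's r of log2(FPKM + 1) was also tested by permuting 1 gene within each treatment group, two-sided, with 100000 draws and adjustment over the 11 pairs. Krt8 values had a gap between 1.12 and 3.76 FPKM, with 10 tumours below and 5 above, so r is given over all 15 tumours and again over the 10 below; the 5 above are too few for a value of their own. The filament partners Krt8 and Krt18 had r = 0.984 over 15 tumours (rho 0.986, permutation p = 1e-05, the smallest these draws can give, adjusted 5.5e-05). It was 0.978 without the 2 tumours farthest from the median and 0.953 in the 10 tumours below the gap (permutation p adjusted 0.00808). Krt8 with Krt19 had r = 0.985 (rho 0.977) and 0.977 below the gap, and Krt18 with Krt19 0.980 (rho 0.969) and 0.965.

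The surface genes followed. Krt8 with Epcam had r = 0.982 over 15 tumours (rho 0.954) and 0.938 below the gap. Epcam with Cldn4 had 0.955 (rho 0.957) and 0.954, Epcam with Cldn7 0.986 (rho 0.946) and 0.897, and Cldn4 with Cldn7 0.934 (rho 0.906) and 0.762. All 7 of these gland-type pairs passed over the 15 tumours by the permutation test within treatment groups, and r of deviations from the group means was between 0.939 and 0.988.

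The skin-type partners gave weaker relations. Krt5 with Krt14 had r = 0.414 (rho 0.398, permutation p = 0.0987, adjusted 0.109) and 0.131 below the gap. Krt1 with Krt10 had r = 0.534 (rho 0.433, permutation p = 0.202), which rests on the 1 tumour with Krt1. Krt14 with Krt10 had r = 0.525 over all tumours (rho 0.346, permutation p = 0.0618, adjusted 0.0850). That relation passed without the 2 tumours farthest from the median (r = 0.686, permutation p adjusted 0.0127), below the gap (r = 0.71, adjusted 0.0155) and without anti-PD-1 replicate 2 (r = 0.771). Across the classes, Krt8 with Krt14 had r = 0.477 (rho 0.329, permutation p = 0.0826, adjusted 0.101) over 15 tumours and -0.0502 below the gap.

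**Figure D4:**
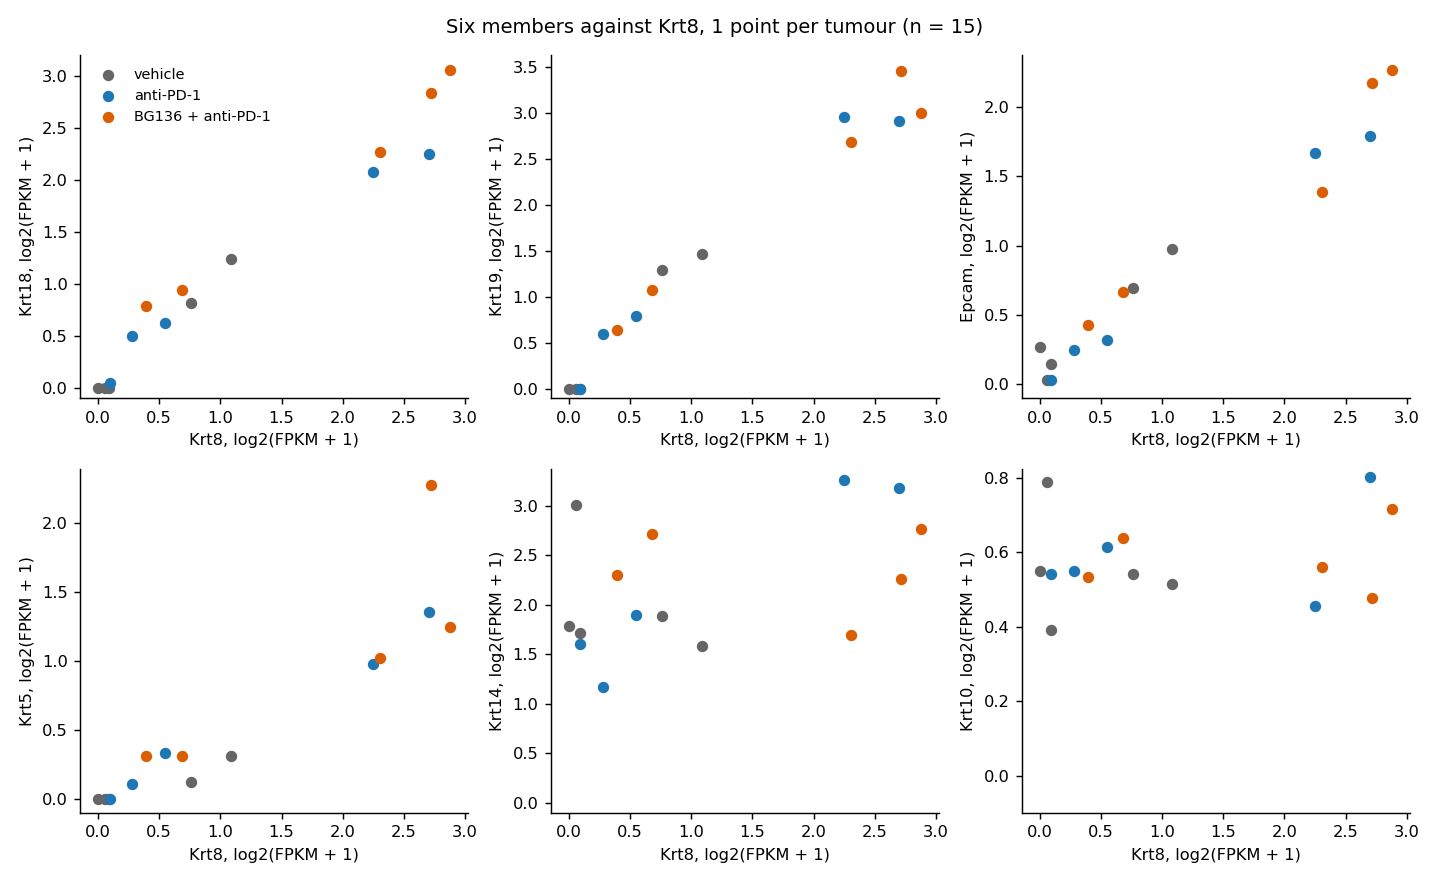
Krt18, Krt19, Epcam, Krt5, Krt14 and Krt10 (y axes) against Krt8 (x axis), all as log2(FPKM + 1), with 1 point per tumour coloured by group (n = 15). The first 4 panels rise along a line with r = 0.984 for Krt18, 0.985 for Krt19 and 0.982 for Epcam, Krt14 scatters with r = 0.477, and Krt10 stays level.

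Ratios within a tumour were taken in the 11 tumours with at least 0.2 FPKM of Krt8. Krt18 stood at 0.682 to 2.31 times the level of Krt8 (median 1.15) and Krt19 at 1.10 to 2.38 times (median 1.77), so in these tumours both type I partners stayed within a 3.38-fold and a 2.16-fold span. Epcam stood at 0.410 to 1.10 times the Krt8 level. Krt5 ran from 0.130 to 0.765 times, a 5.90-fold span, and Krt14 from 0.566 to 12.6 times, a 22.3-fold span. Among these 5 genes Krt14 had the widest span relative to Krt8. The spans were narrower in the 5 tumours with at least 2 FPKM of Krt8: 1.68-fold for Krt18, 1.64-fold for Krt19, 1.53-fold for Epcam, 3.19-fold for Krt5 and 4.05-fold for Krt14.

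Likeness to Krt8 was measured over the other tested genes by Spearman's rho in the 15 tumours. Wfdc2, which encodes a secreted protein of ductal epithelia, came first at 0.966, then Fxyd3, a regulator of the sodium pump in epithelia, at 0.951. They were followed by Wfdc18 at 0.938, Areg, the growth factor amphiregulin, at 0.932, and Il1b, an inflammatory cytokine, and Pygl, glycogen phosphorylase of liver type, both at 0.925. Of 11306 genes compared 13 reached 0.9 and 215 reached 0.8. The genes most like Krt14 were Aqp1, a water channel of endothelium and mesothelium, at 0.846, Acap3 at 0.818, the histone gene Hist1h2bl at 0.794, Msln, a mesothelial surface protein, at 0.782 and Ap4s1 at 0.732, and only Aqp1 and Acap3 reached 0.8.

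Other keratins were mostly near 0. Of 4 further simple keratins Krt80 and Krt7 were tested, and Krt80 rose in the combination against vehicle by 0.66 ± 0.16 (limma adjusted p = 0.00581) and in all 21 alternatives, while Krt7 stood 0.75 ± 0.30 higher (0.0549). Krt7, a keratin of ducts, was at most 0.208 FPKM with vehicle, 1.25 FPKM with anti-PD-1 and 2.06 FPKM with the combination, and had its 5 highest tumours in common with Krt8. It met the filter only through treated tumours. Of 12 further stratified and stress keratins 3 were at 0 in every tumour and Krt16 alone was tested (0.18 ± 0.16, limma adjusted p = 0.386). The basal keratin Krt15 was under the filter, with a maximum of 0.826 FPKM, and had the 5 top tumours of Krt8. That match rested in part on low values, 0.0540 FPKM in anti-PD-1 replicate 2 and 0.0726 FPKM in combination replicate 3. Vehicle replicate 4, the next tumour, had 0.0258 FPKM. Of the same list Krt6a also shared all 5 of these tumours, Krt17 4, Krt79 3 and Krt16 2. Of the 17 hair follicle keratins measured, 15 were at 0 in all tumours, and their sum never passed 0.196 FPKM.

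Partners of keratins at the cell surface were described from 3 lists. Of 13 desmosome genes, the plaque proteins Jup and Pkp3 were tested, and both rose with the combination against vehicle, by 0.42 ± 0.14 (limma adjusted p = 0.0308) and 0.55 ± 0.15 (0.0105). Pkp3 was at most 0.961 FPKM with vehicle, so it met the filter only through treated tumours. The other desmosome genes fell under the filter. The Jup call ended without vehicle replicate 1, 2 or 3 or combination replicate 3 or 5, where the change was 0.39, 0.40, 0.42, 0.41 and 0.27. Dsp, desmoplakin, which ties keratin to the desmosome, was at most 0.393 FPKM and ranked with Krt8 (rho 0.964). This was the highest rho of the desmosome list, where Dsg2 was at 0.917, Pkp1 at 0.875, Dsc2 and Pkp2 at 0.611 each and Dsc1 at 0.0306. Among the linker and hemidesmosome genes the linker Dst fell by 0.25 ± 0.08 (0.0234), and Plec and Cd151, the most abundant, were at 0.10 ± 0.09 and 0.08 ± 0.07. The Dst call was lost without vehicle replicate 3 or combination replicate 4 or 5, and its change over all left-out libraries ran from -0.31 to -0.19.

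Of 16 tight junction and adhesion genes 6 were tested, 1 rose and 1 fell, beside 16.6% of all tested genes called higher and 23.9% lower, shares that also stand behind the counts of every other list in this comparison. The junction adhesion molecule F11r rose by 0.50 ± 0.15 (limma adjusted p = 0.0150) in all 21 alternatives as well, the scaffold Tjp1 fell by 0.25 ± 0.08 (0.0256), and Cldn12, the most abundant, was at 0.07 ± 0.09. The Tjp1 call ended without vehicle replicate 1, 3 or 5 or combination replicate 3, 4 or 5 (changes from -0.31 to -0.20 over all left-out libraries) and with median-ratio size factors, as did that of Dst. Of 18 epithelial transcription and splicing factors 3 were tested and none passed, with Klf4 at 0.42 ± 0.17 (limma adjusted p = 0.0624) and Tfap2a at -0.27 ± 0.10 (0.0544). The basal cell factor Trp63 was 0.1996 to 0.471 FPKM with vehicle, 0.0550 to 0.137 with anti-PD-1 and 0.0133 to 0.143 with the combination. Every treated tumour thus lay below every vehicle tumour, at low levels throughout. The share of all genes that lay wholly lower was not computed, so this separation has no background beside it. Trp63 had a rho of -0.239 with Krt8 and was not among the tested genes. List medians were 0.48 for desmosome, 0.10 for linkers, 0.07 for tight junction and 0.19 for transcription factors, beside -0.05 for all tested genes. Each covers only the list genes that met the filter. In anti-PD-1 against vehicle and in the combination against anti-PD-1 none of the genes of these epithelial lists passed.

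The label of a colon adenocarcinoma line was set against defining genes. None of 10 colon epithelium genes was tested: their sum was between 0.20 and 0.822 FPKM per tumour, 3 were at 0 throughout, and Cdx2, the intestinal transcription factor, was at 0 in all 15 tumours. The mesenchymal and fibroblast genes summed to between 2612 and 3426 FPKM, with Vim alone at 1271 to 1772 FPKM, against at most 27.8 FPKM for the 6 gland-type genes together. Of its 8 tested members Col1a1 and Thy1 rose in the combination against vehicle by 1.27 ± 0.32 and 1.14 ± 0.27 and Col3a1, Fn1 and Pdgfra fell by 0.82, 1.16 and 1.20, and the same 3 fell with anti-PD-1 alone by 0.60, 0.69 and 0.89 (limma adjusted p under the threshold for each). Of the latter 3 calls, that of Pdgfra held in all 21 alternatives, that of Col3a1 was lost without vehicle replicate 1, 2, 3 or 5 or anti-PD-1 replicate 4 or 5, and that of Fn1 without vehicle replicate 1, 3 or 5 or anti-PD-1 replicate 1 or 2. In anti-PD-1 against vehicle 3.34% of all tested genes were called lower and 2.21% higher.

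Some genes of other tissues moved along with the gland-type keratins, and their part in the result was not tested. Of 11 mammary gland genes 3 were tested. The milk protein gene Csn3 rose in the combination against vehicle by 0.85 ± 0.29 (limma adjusted p = 0.0310) and Areg by 1.14 ± 0.42 (0.0444), and Wfdc18 stood 1.44 ± 0.66 higher (0.0947), for a list median of 1.14. That median covers the 3 tested genes alone. Csn3 and Areg were at most 0.815 and 0.936 FPKM with vehicle, so they met the filter only through treated tumours. The Csn3 call ended without vehicle replicate 1, 2, 3 or 5 or combination replicate 3, 4 or 5 (0.65 to 1.04 over all left-out libraries), and the Areg call without these or anti-PD-1 replicate 5 (0.85 to 1.37). The sum of the list ran from 0.157 to 4.26 FPKM with vehicle, from 0.529 to 9.73 FPKM with anti-PD-1 and from 1.42 to 22.01 FPKM with the combination. Csn3, Wfdc18, Areg and the prolactin receptor Prlr all had the top 5 tumours of Krt8. From the transcription factor list, so did the alveolar factor Elf5 (rho 0.748 with Krt8). Grhl2, Ehf and Esrp2 of that list did too (rho 0.792, 0.944 and 0.921), so the trait was not particular to mammary genes. Others of that list shared fewer of these tumours, down to 0 for Tfap2a and Trp63. Of the other detected mammary genes, Ltf shared 4 of these tumours and Lalba 2 (rho 0.244 with Krt8), and Glycam1 was above 0 in only 3 tumours. The milk genes Csn1s1, Csn1s2a, Csn2 and Wap were at 0 in all tumours.

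Of 20 cornified envelope and epidermal differentiation genes 3 were tested, and Sprr1a rose with the combination against vehicle by 0.58 ± 0.21 (limma adjusted p = 0.0395), a call that ended without vehicle replicate 1, 2 or 3 or combination replicate 3, 4 or 5 (0.47 to 0.71 over all left-out libraries). Ly6d, a surface protein of keratinocytes that lymphoid cells also make, stood 1.32 ± 0.54 higher (0.0614), and Sfn was at 0.16 ± 0.09 (0.174). The sum of the list was 3.78 to 6.04 FPKM with vehicle, 4.79 to 11.5 FPKM with anti-PD-1 and 5.54 to 21.8 FPKM with the combination. Its 5 highest tumours were again anti-PD-1 replicates 1 and 2 and combination replicates 3, 4 and 5. Ly6d alone made up 11.99 of the 21.8 FPKM in combination replicate 4 and 4.37 of the 10.6 FPKM in anti-PD-1 replicate 1. Lor, Ivl and Flg of the same list were at most 0.0908, 0.0193 and 0.0167 FPKM, and Hrnr was at 0 throughout.

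Adipocyte genes summed to between 14.8 and 288 FPKM with vehicle, 62.6 and 394 FPKM with anti-PD-1, and 35.4 and 388 FPKM with the combination, and 0 of 8 tested genes passed in any comparison, with a list median of 1.33 in the combination against vehicle. Each of the 9 genes of the list shared 3 of its 5 highest tumours with Krt8, at a rho of 0.471 to 0.782 with Krt8, and their part in the result was not tested. Combination replicate 1 had 324 FPKM of adipocyte genes and vehicle replicate 4 had 288 FPKM, with summed gland-type levels of 2.22 and 6.03 FPKM, whereas combination replicate 3 had 146 FPKM with a gland-type level of 16.4 FPKM. Skeletal muscle genes summed to between 8.10 and 230 FPKM, and 0 of 10 passed in any comparison (list median 1.04 in the combination against vehicle, rho with Krt8 from -0.175 to 0.122). Vehicle replicate 2 had the highest muscle sum and the lowest gland-type sum, and combination replicate 4 had 8.52 FPKM of muscle and 27.5 FPKM of gland-type genes. Of 6 mesothelial genes Msln alone was tested (0.33 ± 0.20, limma adjusted p = 0.206 for the combination against vehicle).

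**Figure D5:**
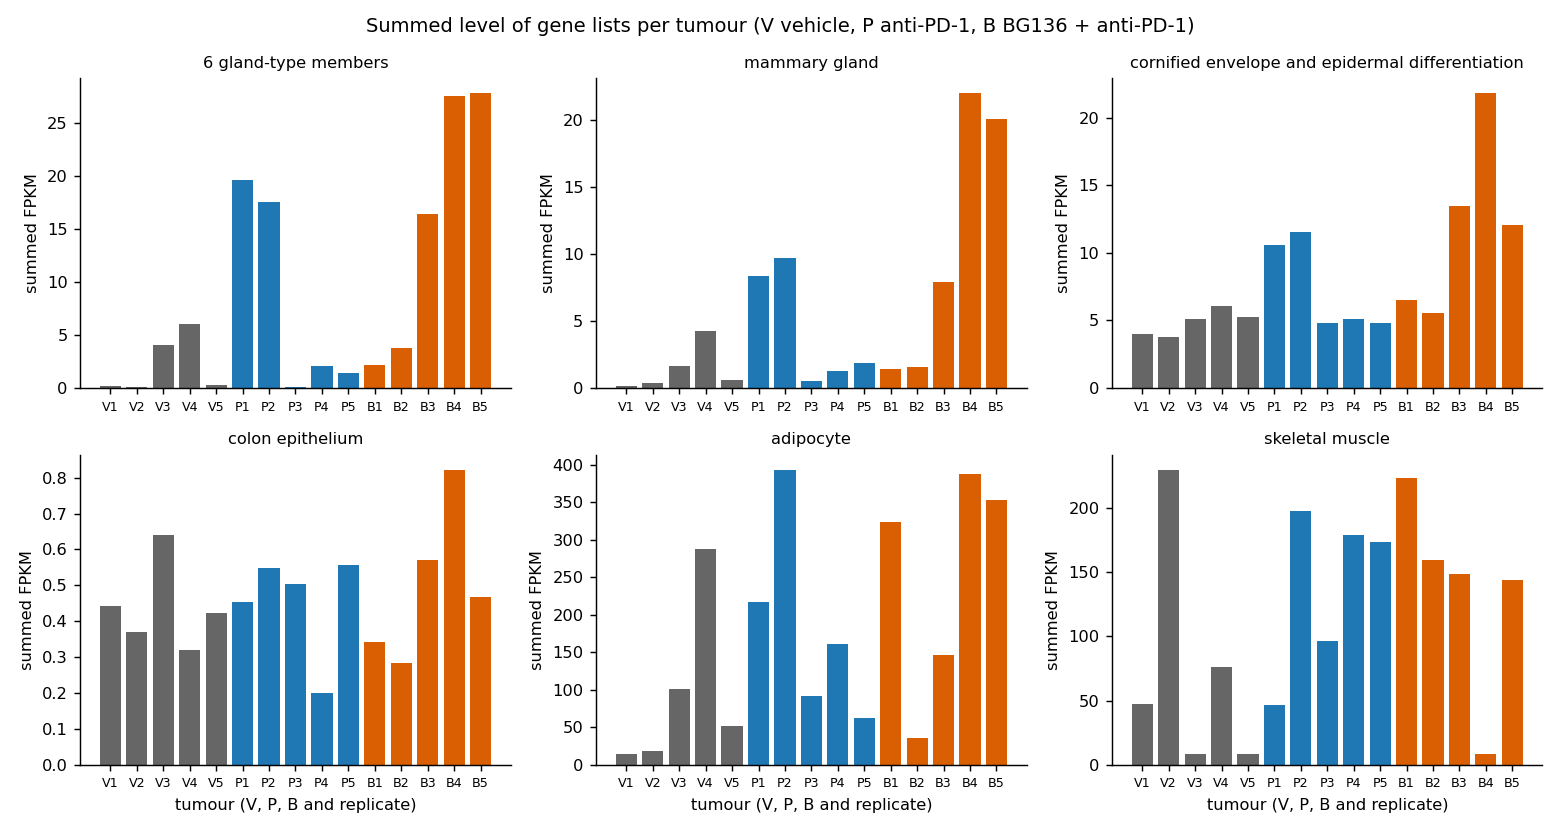
Summed FPKM per tumour (bars, y axis from 0, linear) of the 6 gland-type genes and of 5 lists, with tumours on the x axis as V vehicle, P anti-PD-1 and B combination. Mammary and cornified envelope bars peak in the same 5 tumours as the gland-type bars, colon epithelium stays at or under 0.822 FPKM, adipocyte bars are highest in P2, B4 and B5 but also high in B1 and V4, and muscle bars follow another order.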

How the data were processed

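Strand-specific mRNA libraries of 15 tumour blocks were sequenced, per the labels. The authors deposited 1 table with a column per library; its values were read as FPKM, an inference from the values and from Cufflinks among the tools in the submitters' processing notes. DESeq, Trimmomatic, HISAT2 and HTSeq were among the authors' tools too, per the submitters' processing notes, which give build GRCm39 but no roles or versions. Of 21878 entries 27 with date-like symbols were left out (at most 0.168% of a library's sum). The 11311 genes that reached 1 FPKM in 5 or more libraries were fitted by limma 3.58.1 (R 4.3.3) on log2(FPKM + 1), over all 15 libraries with 3 group means and a trended prior, two-sided, with Benjamini-Hochberg adjustment at 0.05. A fold on this scale understates changes of low genes. Exact tests and correlations were computed with numpy 2.4.6 and pandas 2.3.3, with some ranks from scipy 1.17.1. The fit was tested on simulated data. The genes, lists and tests were chosen with earlier results of these data known. All 10 genes were named, plus the 5 most like Krt8 and Krt14 (6 for Krt8, with a tie), and of each list the 2 most abundant tested genes and any that passed. Other list genes (Dsp, Krt15, Trp63, Cdx2, Prlr, Elf5, Ltf, Lalba, Glycam1, Lor, Ivl, Flg, Hrnr and the milk genes at 0) were named after their values were seen. So were Grhl2, Ehf, Esrp2, Krt6a, Krt17, Krt79, Dsg2, Pkp1, Pkp2, Dsc1 and Dsc2. One gene of the linker list is not reported here. Alternatives were pseudocounts of 0.1 and 0.5, no filter, median-ratio size factors, a replicate block, the compared groups alone and leaving out each library. Depth was known only relative to vehicle replicate 1, so no counting intervals are given.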

Additional observations from a re-analysis of the deposited data

Results flagged for a closer look

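In each group of 5 tumours, the highest or lowest value was compared with its nearest neighbour, and a value was singled out where that gap exceeded 0.71 of the group's range. Of 28 groups of values screened, 2 were singled out. The cut-off is set so that chance does so in about 1 of 20 normally distributed groups, a rate that need not hold for FPKM with many values at 0. Krt14 was 7.03 FPKM in vehicle replicate 2, a gap of 0.859 of the range from the other 4 vehicle tumours. That tumour also had the highest skeletal muscle sum (230 FPKM). Krt1 was 0.0824 FPKM in anti-PD-1 replicate 1 and listed at 0 in the other 4. With 1 value above 0 the gap is always the whole range, so this flag carries no weight.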

How the results depend on the processing

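Over the alternatives, 293 of the changes fitted for single genes of the 10 kept their direction and side of the threshold, 11 passed in addition, 7 no longer passed and 4 reversed. In the combination against vehicle the count of these genes past the threshold was 1, and became 3 with a pseudocount of 0.1, 2 without a filter, 3 with the compared groups alone and 0 to 4 on leaving out 1 library (0 without vehicle replicate 1, 2 or 5 or combination replicate 3, 4 or 5; 4 without combination replicate 1 or 2). The limma adjusted p of Krt18 ran from 0.0116 to 0.0632 over 21 alternatives, and it passed in 14. Krt8 passed in 5 alternatives, Krt19 in 4 and Epcam in 2, and the second gene past it without a filter was Cldn4 (0.71, limma adjusted p = 0.0469). Replicate numbers did not pair tumours: deviations of same-numbered tumours correlated at -0.388 to 0.293, over 0.1 in 2 of 15 pairs, and 1 of 15 tumours correlated best with its own number. With the replicate block 0 of the 10 genes passed in the combination against vehicle, and all genes past the threshold were 347 for anti-PD-1 against vehicle and 0 for the combination against anti-PD-1.

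Over all genes, anti-PD-1 against vehicle had 628 past the threshold, 2100 with the compared groups alone and 229 to 1121 on leaving out 1 library. The combination against anti-PD-1 had 7, but 0 with median-ratio size factors, 0 with the compared groups alone and 0 to 2224 on leaving out 1 library (2224 without combination replicate 2). On leaving out 1 library Krt14 ran from -0.0318 to 0.491 in anti-PD-1 against vehicle and from -0.141 to 0.382 in the combination against anti-PD-1. Krt10 ran from -0.0139 to 0.0852, -0.0172 to 0.0928 and -0.0416 to 0.0449 in the 3 comparisons, with 0.0108 under median-ratio size factors in the last, and Cldn4 from -0.00361 to 0.231 in anti-PD-1 against vehicle. The correlation of Krt14 with Krt10 was 0.686 without the 2 farthest tumours, 0.71 below the Krt8 gap and 0.392 to 0.771 on leaving out 1 library. That of Krt8 with Krt14 was -0.0502 below the gap. For list genes that passed, 316 values under the alternatives kept their call, 62 lost it and none reversed. Beside left-out libraries, Tjp1 and Dst lost it with median-ratio size factors or the compared groups alone, and Csn3 with the latter. Sprr1a and Areg lost it without a filter, and Sprr1a, Areg and Csn3 with the replicate block. For anti-PD-1 against vehicle, Col3a1 lost it without a filter, and Col3a1 and Fn1 with the replicate block. The cause was not tested. The restriction to tumours below the gap, the alternatives for the exact test and those for list genes were chosen after seeing the data. Low levels limit what can be read from Cldn7, Krt1 and the vehicle tumours.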
